A study of Mus musculus with 24 samples.

Results

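At day 7 of reprogramming with interferon γ (IFNγ), cells in which the silent X chromosome had become active again (X-GFP-high) were compared with cells from the same stage in which it had not (X-GFP-negative), across every gene with a mean above 10 normalized counts in these 4 libraries. A normalized count is the number of reads on a gene divided by a scaling factor for the library. The filter kept 15844 of the 37315 genes in the deposited table. X-GFP-high cells had more mRNA of naive pluripotency factors and germline genes, most X-linked genes with allelic data had a larger share of reads from the reactivated chromosome, and IFNγ-response, keratin and neural genes were lower.

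All cells came from PaX, a mouse embryonic stem cell (ESC) line from a hybrid of 129S1/SvImJ (Mus musculus) and CAST/EiJ (Mus castaneus). A GFP reporter (X-GFP) was placed in Hprt on the musculus X chromosome (X mus), a truncation of Tsix makes this X the preferred target of inactivation, a Nanog promoter drives a red reporter (P-RFP), and doxycycline switches on a Myc, Klf4, Oct4 and Sox2 cassette through a transactivator in the Sp3 locus. Neural precursor cells (NPCs) made from the line were given doxycycline and reprogrammed on feeders, irradiated fibroblasts of male mouse embryos. Both populations compared here had received 10 ng/ml IFNγ from day 0 to day 5, were enriched for the surface marker SSEA1 and were sorted at day 7 by X-GFP into negative, medium and high populations (GFP-negative, GFP-medium and GFP-high), with 2 libraries each. The control arm was handled alike without IFNγ, and ESCs and NPCs were the end points. Reads from the cassette cannot be told apart from those of endogenous Pou5f1, Sox2, Klf4 and Myc.

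In female mammals, 1 X chromosome is silenced in differentiated cells by Xist, a noncoding RNA that coats the chromosome in cis and recruits repressive complexes. During reprogramming to pluripotency Xist is lost from the inactive X and its genes become active again, late in the process and together with the naive network of transcription factors. IFNγ acts through JAK kinases to switch on genes for antigen presentation, guanylate-binding proteins and immunity-related GTPases.

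The 4 libraries held 24746109 to 27992560 reads on genes, and mitochondrial transcripts took 13.5% and 16.3% of reads in the GFP-high libraries against 18.1% and 19% in the GFP-negative libraries. Replicates differed by more than sampling noise, with the chi-square of their counts at 13.2 times its degrees of freedom in GFP-high and 6.64 times in GFP-negative cells. The study's methods call replicates independent without saying whether they were separate cultures, so p-values measure the spread between these libraries. With 2 libraries against 2, an exact permutation test cannot fall below p = 0.33, and all adjusted p-values here are from limma with Benjamini-Hochberg adjustment over all genes tested. In bulk RNA, fewer cells of a kind and less RNA per cell cannot be told apart.

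At an adjusted p under 0.1 in limma, 68.7% of the genes tested differed: 5399 genes were higher in GFP-high cells (34.1% of those tested) and 5483 were lower (34.6%). With a change of at least 2-fold as well, 1567 were higher (9.89%) and 2471 lower (15.6%). The median log2 fold change over all genes was 0.00. The GFP-medium population lay between: its mean was between the others for 1447 of the 1567 increases and 2216 of the 2471 decreases of at least 2-fold. Over all genes, the median absolute log2 difference was 0.30 from negative to medium and 0.25 from medium to high, and the distance to ESCs was 0.70 for GFP-negative and 0.44 for GFP-high cells.

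**Figure D1:**
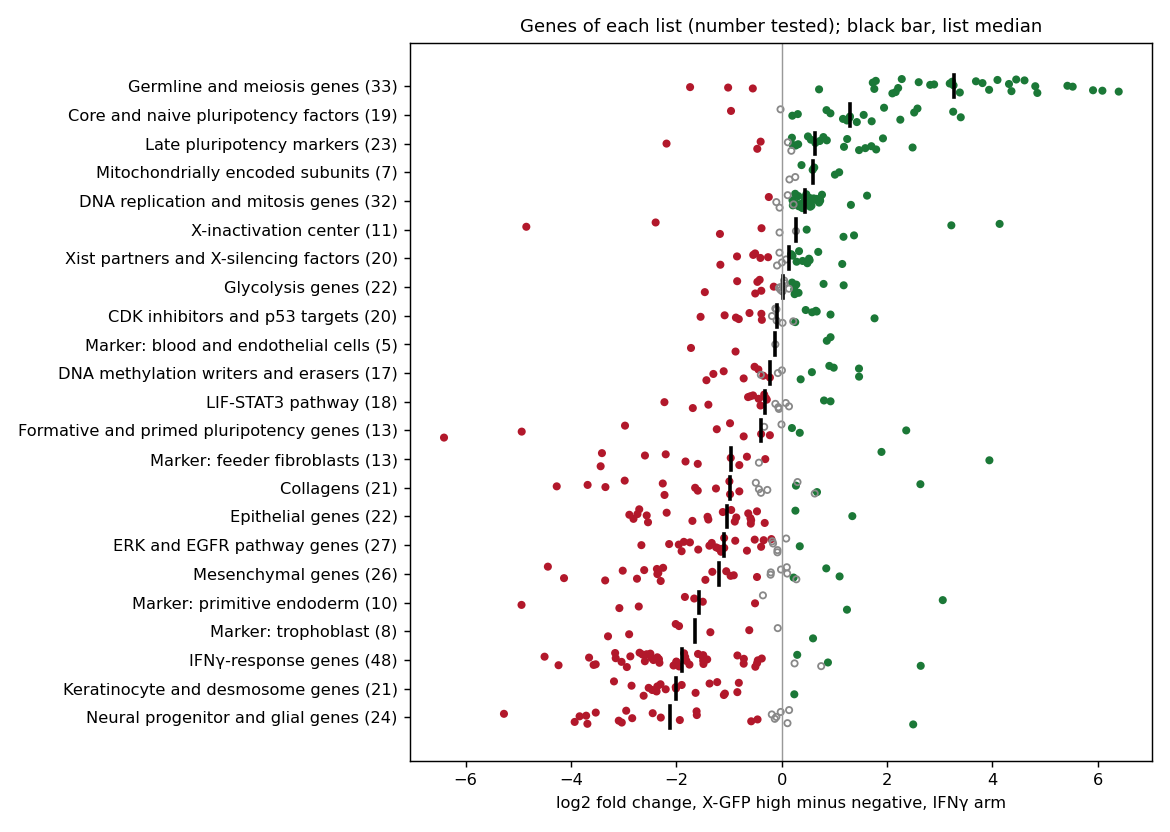
Each point is 1 tested gene of a list, placed by its log2 fold change of GFP-high over GFP-negative cells in the IFNγ arm; filled points pass adjusted p under 0.1 in limma (green higher, red lower), open points do not, and the black bar is the list median. Germline genes have the highest median, 3.26, and neural genes the lowest, -2.11.

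The core and naive pluripotency factors, which hold the self-renewing state of ESCs, were higher in GFP-high cells: of 19 tested, 17 rose, 1 fell and 1 was not called, with a median log2 fold change of 1.30. Nr0b1, an X-linked nuclear receptor family member of the naive network, had 257.7 and 300.9 normalized counts in GFP-negative, 1017 and 1279 in GFP-medium and 2904 and 2999 in GFP-high libraries. The populations did not overlap, and GFP-high cells were at the ESC mean of 2862. Its log2 fold change of GFP-high over GFP-negative cells was 3.40 (SE 0.10, adjusted p = 2.6e-07). The autosomal Zfp42 (Rex1), a marker of naive ESCs, was at 2777 and 2917 in GFP-negative and 15277 and 18950 in GFP-high libraries, a log2 fold change of 2.58 (SE 0.10). Tcl1, a coactivator of AKT kinase, rose by 3.26 on the log2 scale and Tbx3, a T-box factor, by 2.52. Klf2 rose by 1.71, Esrrb by 1.43 and Nanog by 1.29, and these factors of the naive network were below their ESC means in the 2 GFP-high libraries. Nanog was measured at 6297 and 5569 against 14755 and 14120 normalized counts, with an ESC mean of 25331. The member that fell was Tfap2c, an AP-2 factor of naive human and germ cells, with a log2 fold change of -0.96, and Zfp281 did not pass the test at -0.02.

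Smallest among the increases was Pou5f1 (Oct4), at 0.20, a call that was lost with the fit over all 24 libraries, after rescaling to the same total, and without GFP-high replicate 2 or either GFP-negative replicate. Sox2 was at 0.93 and Klf4 at 1.24, both genes of the cassette. Over the 19 factors the median distance to ESCs was -1.69 on the log2 scale in GFP-negative cells and -0.09 in GFP-high cells, and most of the rise came with the step from negative to medium (0.85) rather than from medium to high (0.44).

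Late pluripotency markers, genes that switch on near the end of reprogramming, followed: 18 of 23 rose and 3 fell, with a median of 0.64. Dppa5a, an RNA-binding protein of pluripotent cells, rose from 7582 and 6281 to 41762 and 35824 normalized counts, a log2 fold change of 2.49 (SE 0.11). Tex19.1 (1.92), Dppa2 (1.80) and Fgf4 (1.70) rose as well. The 3 that fell were the Nodal inhibitor Lefty1 (-2.18), Dppa3 (-0.46, a call lost in the fit over all 24 libraries) and Lin28b (-0.40). Lefty1 was at 5875 and 5020 in GFP-negative, 908.0 and 938.9 in GFP-medium and 1073 and 1329 in GFP-high libraries, while ESCs were at 6033, so the high population lay farther from ESCs than the negative population. Lin28a (0.12) and Alpl (0.18) did not pass the test.

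Formative and primed genes, which mark the exit from the naive state, split: 3 of 13 rose and 8 fell, with a median of -0.39. Fgf5, a growth factor of the post-implantation epiblast, was at 764.6 and 859.2 in GFP-negative, 70.5 and 104.6 in GFP-medium and 21.7 and 30.1 in GFP-high libraries. These did not overlap, and the log2 fold change was -4.93 (SE 0.19, adjusted p = 6.9e-07 in limma). Foxd3, a forkhead factor used in the naive and the formative state, rose by 2.37, and Pou3f1 (-0.33) and Sox3 (0.00) did not pass the test. Of the LIF-STAT3 pathway, through which LIF sustains ESCs, 11 of 18 genes fell and 2 rose, with a median of -0.32. Over all genes tested, 34.6% fell and 34.1% rose. The summed normalized counts of the pathway genes were 37462 and 35562 in GFP-negative and 37683 and 34530 in GFP-high libraries, so their total did not fall. Stat3 fell by 0.64, Jak2 by 1.39 and the receptor subunit gene Osmr by 2.22 on the log2 scale. The kinase genes Pim1 (0.93) and Pim3 (0.81) rose, and the receptor genes Lifr (0.08) and Il6st (0.14) did not pass the test.

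Among 17 genes that write or erase DNA methylation, 6 rose (35.3%) and 8 fell (47.1%), shares close to the 34.1% and 34.6% of all genes tested. Tet1, a dioxygenase that oxidizes methylcytosine, was at 6283 and 7442 in GFP-negative and 16015 and 22381 in GFP-high libraries (log2 fold change 1.47, SE 0.15). Tet2, of the same family, rose by 0.99 and Tet3 fell by 0.51. The maintenance genes Uhrf1 (0.91) and Dnmt1 (0.36) rose. Of the de novo methyltransferases, the cofactor gene Dnmt3l rose by 1.47 and Dnmt3a fell by 0.72 on the log2 scale. In the control arm the log2 fold change of Tet2 was 0.05, and the difference between the arms was 0.94 (adjusted p = 0.0013 in limma).

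Germline and meiosis genes, most of which are silent in somatic cells, had the highest median of the lists: of 36 listed, 33 passed the filter, 30 rose and 3 fell, with a median of 3.26, the same with genes near 0 reads set to their bounds. Members such as Mael and Fkbp6 passed the filter through GFP-high cells alone and could only be called higher, so these counts are a description. Mael, a nuage protein that guards the germline against transposons, was at 6.4 and 9.9 in GFP-negative, 138.8 and 120.2 in GFP-medium and 612.4 and 612.5 in GFP-high libraries. Its log2 fold change was 6.09 (SE 0.24, adjusted p = 6.9e-07 in limma), and the GFP-high level was above the ESC mean of 296.8. Fkbp6, a cochaperone needed for meiosis and piRNA loading, had 2 reads in the GFP-negative libraries together and 259 in the GFP-high libraries, a ratio of normalized levels of 144 with an exact 95% counting interval of 39.6 to 1199. Smc1b, the meiotic cohesin subunit, rose from 46.2 and 26.7 to 1604 and 1505 normalized counts, a log2 fold change of 5.43. Dazl, an RNA-binding protein of germ cells, rose by 4.85, the helicase gene Ddx4 by 3.38 and the synaptonemal complex gene Sycp3 by 3.19.

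By chromosome class, 24 of 25 autosomal and 6 of 8 X-linked germline members rose, under the limit of the filter given above. Over all genes tested, 33.2% of autosomal and 54.1% of X-linked genes were higher. The X-linked Magea4 had no read in the GFP-negative libraries and was at least 19.3-fold higher in GFP-high libraries, with 67.4 and 52.0 normalized counts. Xlr3b and Xlr3a also rose, but they belong to a family of near-identical copies and their counts are uncertain. The 3 members that fell were the X-linked homeobox genes Rhox9 (-1.74) and Rhox6 (-1.02) and the meiotic cohesin gene Rec8 (-0.55), whose call was lost in the fit over all 24 libraries and without GFP-negative replicate 1. The median of the list was 3.42 below ESCs in GFP-negative cells and 0.14 above them in GFP-high cells on the log2 scale.

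The promoters of 3 of these genes are printed because they carry the E-box CACGTG, the recognition sequence of MYC- and MGA-type factors. Each is the 250 bases before the RefSeq start in GRCm38.p6, on the strand of the gene, with the E-box in capitals. Fkbp6 lies on the minus strand (chr5:135350045-135350294), Mael on the minus strand (chr1:166238745-166238994) and Sycp3 on the plus strand (chr10:88459337-88459586).
Fkbp6: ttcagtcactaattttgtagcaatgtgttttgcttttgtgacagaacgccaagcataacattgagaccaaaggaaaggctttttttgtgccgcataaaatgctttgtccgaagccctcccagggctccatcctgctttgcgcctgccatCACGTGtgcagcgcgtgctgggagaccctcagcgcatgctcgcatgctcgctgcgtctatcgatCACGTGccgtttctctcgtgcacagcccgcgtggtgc
Mael: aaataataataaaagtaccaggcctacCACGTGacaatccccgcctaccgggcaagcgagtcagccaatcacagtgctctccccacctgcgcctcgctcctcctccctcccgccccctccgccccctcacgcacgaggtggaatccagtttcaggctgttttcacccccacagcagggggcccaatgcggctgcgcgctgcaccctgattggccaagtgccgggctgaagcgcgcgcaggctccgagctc
Sycp3: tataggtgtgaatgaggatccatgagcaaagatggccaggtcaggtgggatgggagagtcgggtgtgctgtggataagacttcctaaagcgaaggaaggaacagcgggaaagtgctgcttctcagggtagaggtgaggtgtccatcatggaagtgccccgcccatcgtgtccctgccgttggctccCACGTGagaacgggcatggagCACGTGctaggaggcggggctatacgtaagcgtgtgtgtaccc

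Searched on both strands, CACGTG was found in this window in 12 of the 31 germline genes matched in the RefSeq promoter table (38.7%), in 6.86% of all 27025 genes of the table and in 9.68% of the 11317 tested genes matched. The median number of CpG dinucleotides in the window was 14 for germline genes and 16 for the tested genes. A match is a description of the letters and not a bound site.

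**Figure D2:**
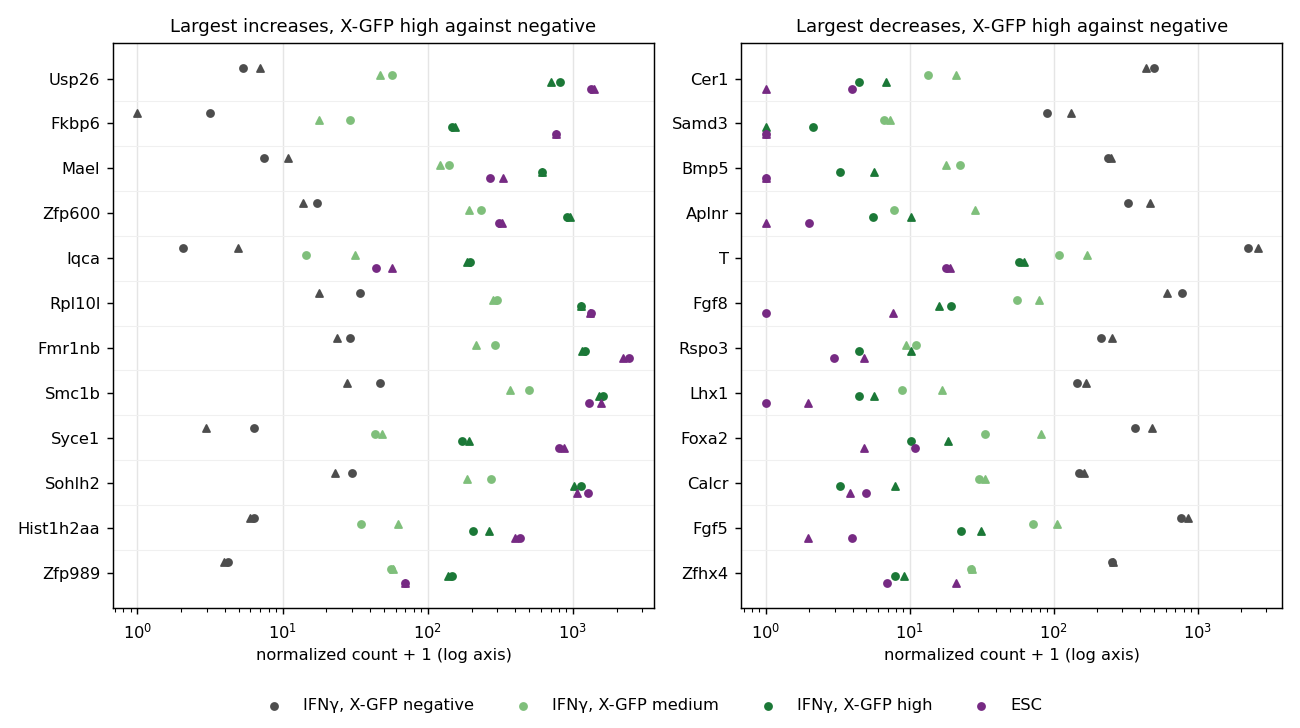
Normalized counts plus 1 on a log axis for the 12 genes with the largest increases and the 12 with the largest decreases; circles are replicate 1 and triangles replicate 2 of the GFP-negative, GFP-medium and GFP-high populations of the IFNγ arm and of ESCs. For all 12 increases, and for 10 of the 12 decreases, both GFP-medium libraries lie between the other populations.

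The 12 largest increases among genes with a mean of at least 100 normalized counts in the higher group, which all of them reach in GFP-high cells alone, were Usp26, Fkbp6, Mael, Zfp600, Iqca, Rpl10l, Fmr1nb, Smc1b, Syce1, Sohlh2, Hist1h2aa and Zfp989, several of them known from testis or meiosis, and 2 of the 12 are on the X chromosome. Usp26, an X-linked deubiquitinase gene known from testis, was at 4.3 and 5.9 in GFP-negative, 56.0 and 46.0 in GFP-medium and 812.3 and 703.8 in GFP-high libraries. The groups were far apart, with a log2 fold change of 6.96 (SE 0.23, adjusted p = 3.6e-07 in limma). Rpl10l, an autosomal copy of the X-linked ribosomal gene Rpl10 that serves meiosis, rose from 33.3 and 16.8 to 1139 and 1137 normalized counts. Sohlh2, a basic helix-loop-helix factor of germ cells, rose by 5.36 on the log2 scale. Zfp600 and Zfp989 belong to a cluster of near-identical zinc finger genes, and their counts are uncertain.

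The 12 largest decreases were Cer1, Samd3, Bmp5, Aplnr, T, Fgf8, Rspo3, Lhx1, Foxa2, Calcr, Fgf5 and Zfhx4, and none of them is on the X chromosome. Cer1, a secreted inhibitor of Nodal, BMP and WNT, was at 492.9 and 437.5 in GFP-negative, 12.3 and 19.9 in GFP-medium and 3.4 and 5.8 in GFP-high libraries. Its log2 fold change was -6.41 (SE 0.28, adjusted p = 9.9e-07 in limma), and the ESC mean was 1.5. T (brachyury), the T-box factor of the streak, fell from 2237 and 2620 to 56.0 and 61.2 normalized counts, a log2 fold change of -5.35 (SE 0.12). GFP-medium cells, at 107.5 and 170.4, were already close to the high population. Foxa2, a forkhead factor of endoderm and node, was at 364.1 and 477.1 in GFP-negative and 9.1 and 17.3 in GFP-high libraries (-4.94, SE 0.30). These levels were not confined to GFP-negative cells: NPCs were at 1821 for T and at 1794 for Foxa2.

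The X chromosome was the chromosome with the largest share of genes called higher. Of 615 X-linked genes tested, 333 were higher (54.1%) and 123 lower (20%), with a median log2 fold change of 0.42, while of 15015 autosomal genes 33.2% were higher and 35.4% lower, with a median of -0.01. Chromosome 13 followed with 41.3% of genes higher. At least 2-fold changes were found in 168 X-linked increases (27.3%) and 74 decreases (12%), against 9.14% and 15.8% of autosomal genes. The populations were sorted on a reporter of 1 X chromosome, so some difference of this kind was built into the comparison.

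**Figure D3:**
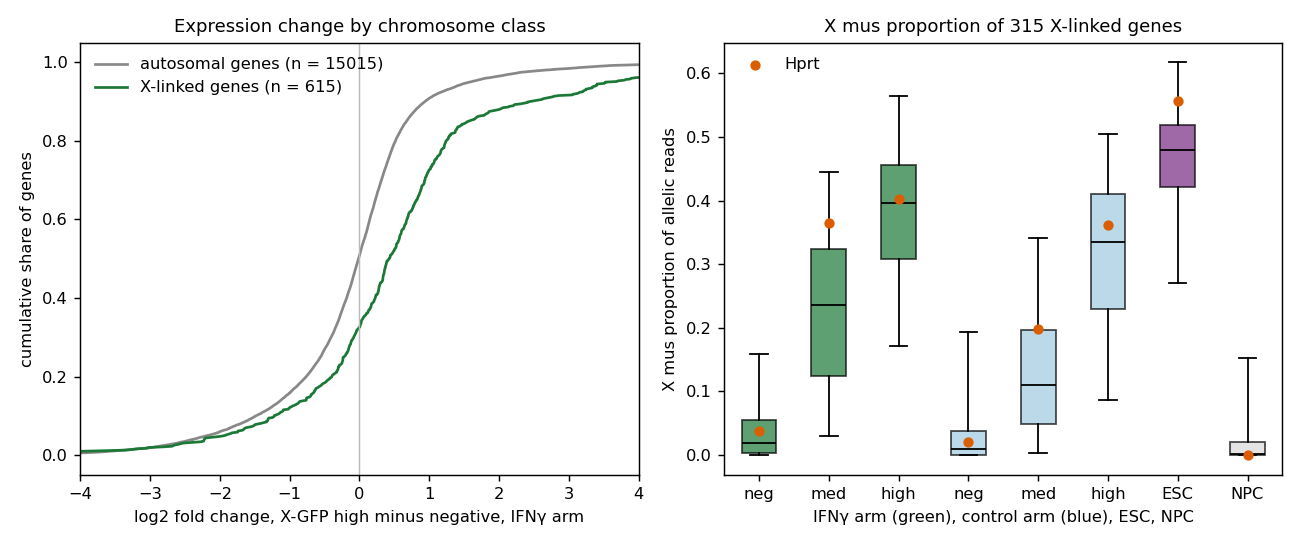
Left, cumulative share of X-linked and autosomal genes by log2 fold change of GFP-high over GFP-negative cells in the IFNγ arm (x axis cut at -4 and 4). Right, X mus proportion of allelic reads for 315 X-linked genes, with the median, quartiles and 5th to 95th percentiles as box and whiskers and Hprt in orange; the medians step from 0.0188 to 0.236 and 0.396 in the IFNγ arm and from 0.00889 to 0.110 and 0.335 in the control arm.

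Reads that carry a variant between the parental strains show which X they came from. The deposited X mus proportion is the share of a gene's allelic reads from X mus, given as 1 value per gene and population. The read numbers behind it are not given, so no interval can be drawn. Over 315 genes without Xist, the median was 0.0188 in GFP-negative cells (quartiles 0.00377 and 0.0549), 0.236 in GFP-medium and 0.396 in GFP-high cells (quartiles 0.308 and 0.456), against 0.480 in ESCs. The proportion was higher in GFP-high than in GFP-negative cells for 313 genes, equal for 2 and lower for none, and 299 genes were ordered negative, medium, high. At a proportion of at least 0.3 there were 5 genes in GFP-negative, 93 in GFP-medium, 244 in GFP-high cells and 296 in ESCs. The median gene of GFP-high cells reached 0.838 of its ESC proportion.

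Hprt, the locus of the reporter and the gene of a purine salvage enzyme, was at a proportion of 0.0373 in GFP-negative, 0.365 in GFP-medium and 0.402 in GFP-high cells. Its total level rose from 353.3 and 278.1 to 992.8 and 978.9 normalized counts. The largest differences in proportion were for Gpr50 (0 to 0.625), Apln (0.0188 to 0.625), Trmt2b (0.0167 to 0.618), Mpp1 (0.0101 to 0.594) and Tmsb4x (0.0352 to 0.620). Gpr50 and Apln had means of only 17.8 and 35.7 total normalized counts in GFP-high cells, so their proportions rest on few reads. The smallest were for Cited1 and Zfp300, both 0 in either population, Sh3bgrl (0.0087 to 0.0238), Dnase1l1 (0.0172 to 0.0556) and Nap1l2 (0 to 0.0455). Sh3bgrl, with a mean of 476.7 normalized counts in GFP-high cells and a proportion of 0.306 in ESCs, was well expressed and still almost wholly from the castaneus X (X cas). The 20 genes that already escaped silencing in NPCs went from a median of 0.185 to 0.485.

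The proportion in GFP-high cells varied along the chromosome within a narrow band. Genes more than 60 Mb before Xist had a median of 0.427 (n = 67) and those more than 60 Mb after it 0.416 (n = 16), while the 22 genes within 30 Mb after Xist had 0.340 and the 79 within 30 Mb before it 0.410. In GFP-medium cells the outer bins were at 0.301 and 0.330, the bin just after Xist at 0.158 and the bin just before it at 0.222, and the genes 30 to 60 Mb before Xist, at 0.160, were as low as those just after it. The outer bins were also the highest in GFP-negative cells, at 0.0600 and 0.0368.

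The total level of these genes rose less than the added X mus reads alone would give. Of 314 with a test, 189 were higher and 57 lower in total normalized count, with a median log2 fold change of 0.47. Had the X cas part stayed constant, the median would have been 0.65, and the X cas part computed from the proportion had a median log2 difference of -0.21, lower in GFP-high cells for 197 genes and higher for 117. The other 300 X-linked genes, without an allelic value, had a median of 0.36, with 144 higher and 65 lower.

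Within the X-inactivation center, the interval that holds Xist and its regulators, 11 genes passed the filter, 5 rose (45.5%) and 4 fell (36.4%). Of all genes tested, 34.1% rose and 34.6% fell. Xist (chrX:103460366-103483254, minus strand, GRCm38) was at 4562 and 4715 in GFP-negative, 1557 and 1643 in GFP-medium and 795.1 and 981.2 in GFP-high libraries. The 3 populations did not overlap, and the log2 fold change was -2.39 (SE 0.10, adjusted p = 9.4e-07 in limma). GFP-high cells were at the ESC mean of 791.6, far under the NPC mean of 10412. The X mus proportion of Xist was 0.995 in GFP-negative and 0.989 in GFP-high cells, so the remaining RNA was from X mus in both. Tsix, the antisense repressor of Xist that overlaps it, was at 86.99 and 95.02, then 351.5 and 313.7, then 827.1 and 887.6 normalized counts, a log2 fold change of 3.22 (SE 0.13). Whether reads were counted by strand is not given in the sources used here, so reads of Xist and Tsix in the overlap may not be separated.

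Around them, Tsx, a testis-expressed gene beside Tsix, rose by 4.14 on the log2 scale, Chic1 by 1.37 and Phka1 by 0.48. Ftx, a noncoding activator of Xist, fell by 1.17, and Rlim, the ubiquitin ligase gene that acts upstream of Xist, fell by 0.38 on the log2 scale. Nap1l2 (0.27) and Hdac8 (-0.04) did not pass the test, Cdx4 and Zcchc13 were under the filter, and the symbols of the other 4 listed genes were not matched. The X mus proportion of Rlim rose from 0.0266 to 0.364 while its total fell. Among 20 partners of Xist and silencing factors, 10 rose (50%) and 6 fell (30%), with a median of 0.13. The shares of all genes tested were 34.1% and 34.6%. The Polycomb gene Eed rose by 1.15 and the Xist-anchoring gene Ciz1 fell by 1.16, and Spen, the Xist-bound repressor, was at -0.04 and did not pass the test.

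The IFNγ-response genes were lower in GFP-high than in GFP-negative cells, 2 days after the cytokine had been withdrawn. Of 52 listed, 48 passed the filter, 43 fell and 3 rose, with a median log2 fold change of -1.90. Of the receptor and signalling genes, Ifngr1 fell by 1.49 and Irf1, a transcription factor induced by IFNγ, by 1.41 on the log2 scale. Irf1 was at 3152 and 2951 in GFP-negative, 1413 and 1459 in GFP-medium and 1120 and 1171 in GFP-high libraries, and at a mean of 688.9 in ESCs. Among the effectors, Gbp2, a guanylate-binding protein, went from 2603 and 2247 through 437.8 and 543.7 to 110.8 and 146.8 normalized counts, a log2 fold change of -4.23 (SE 0.15, adjusted p = 3.9e-07). Members of the Gbp family are similar in sequence and reads may be split between them, but all 6 with a test fell, with a median of -2.64.

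Of the antigen presentation genes in the list, those of the immunoproteasome, the peptide transporter and MHC class I fell, and those of class II were split. Psmb8, a subunit of the immunoproteasome, went from 1717 and 1556 through 226.2 and 325.2 to 59.4 and 85.5 normalized counts, a log2 fold change of -4.50 (SE 0.17). The peptide transporter gene Tap1 fell by 2.64, B2m, the light chain of MHC class I, by 2.94, and the class I genes H2-D1 by 2.32 and H2-K1 by 2.00 on the log2 scale, although class I genes are similar in sequence and reads may be split between them. The 3 members that rose were Ciita, the class II transactivator, at 9.7 and 7.9 against 72.0 and 49.7 normalized counts (2.64), the class II gene H2-Eb1 (0.88) and Stat2 (0.30), the call of which was lost without GFP-high replicate 1 or GFP-negative replicate 2. The class II gene H2-Ab1 fell (-0.47, a call lost in the fit over all 24 libraries and without GFP-high or GFP-negative replicate 2), and Cd74 (0.75) and H2-Aa (0.25), also of the class II pathway, did not pass the test. In GFP-high cells the list was above ESCs by a median of 1.73 on the log2 scale, against 3.34 in GFP-negative cells. Over all genes tested, these medians were 0.02 and 0.02. A level above ESCs was also found without IFNγ. The listed genes summed to 13736 and 14123 normalized counts in GFP-high libraries of the IFNγ arm and 13257 and 13020 in those of the control arm. In ESCs they summed to 8750 and 8862. For 40 of the tested IFNγ-response genes both GFP-high libraries were above both ESC libraries. For 31 of them both GFP-medium libraries lay between the other populations. Neither count was made over all genes, so both are descriptions.

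The promoters of Gbp2 and Psmb8 are printed as the genes with the largest falls that carry the binding letters of IFNγ signalling, from the 250 bases before the RefSeq start in GRCm38.p6 on the plus strand. Capitals mark the interferon-stimulated response element, GAAA and GAAA with any 2 bases between them, here on the opposite strand, in Gbp2 (chr3:142620413-142620662) and the gamma-activated site TTCNNNGAA in Psmb8 (chr17:34197945-34198194).
Gbp2: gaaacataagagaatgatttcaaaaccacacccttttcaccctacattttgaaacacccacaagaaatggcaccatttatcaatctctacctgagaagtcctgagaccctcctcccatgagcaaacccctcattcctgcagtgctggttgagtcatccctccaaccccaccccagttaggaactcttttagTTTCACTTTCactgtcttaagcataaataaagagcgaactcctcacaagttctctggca
Psmb8: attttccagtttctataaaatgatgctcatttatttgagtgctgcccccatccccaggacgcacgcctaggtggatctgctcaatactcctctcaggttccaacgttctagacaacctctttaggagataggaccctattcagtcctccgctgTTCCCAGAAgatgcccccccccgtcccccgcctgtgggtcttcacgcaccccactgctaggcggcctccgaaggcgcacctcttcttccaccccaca

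Searched on both strands, the response element was found in 18 of the 39 IFNγ-response genes matched (46.2%) against 3.46% of all genes of the promoter table, and TTCNNNGAA in 10 of the 39 (25.6%) against 8.13%. The IFNγ-response genes were not picked for these letters, and neither match was set against binding data.

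**Figure D4:**
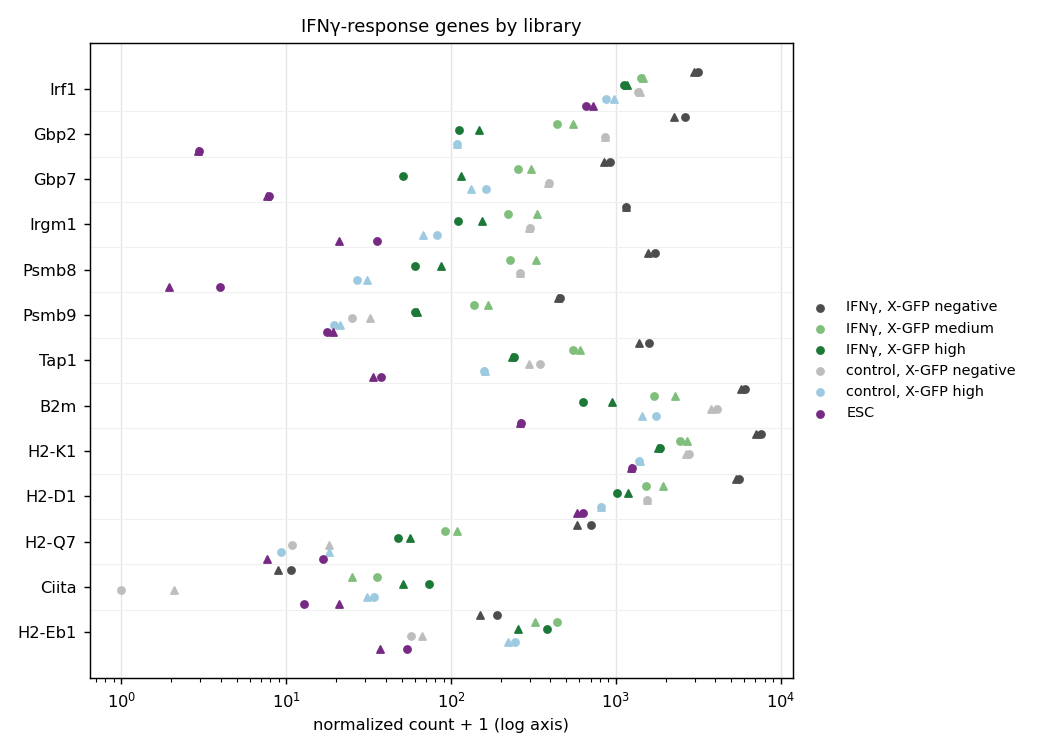
Normalized counts plus 1 on a log axis for 13 IFNγ-response genes in each library (circles replicate 1, triangles replicate 2) of the GFP-negative, GFP-medium and GFP-high populations of the IFNγ arm, the GFP-negative and GFP-high populations of the control arm, and ESCs. Psmb8 steps from 1717 and 1556 down to 59.4 and 85.5 in the IFNγ arm, while Ciita and H2-Eb1 are higher in GFP-high cells.

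Epithelial genes were lower in GFP-high cells in 20 of 22 cases and higher in 2, with a median log2 fold change of -1.04. The keratin gene Krt8 went from 7517 and 8319 through 2876 and 4235 to 946.0 and 1486 normalized counts (-2.74, SE 0.18), the tight junction gene Cldn6 fell by 1.69, and E-cadherin (Cdh1) by 0.32 on the log2 scale. Grhl2, a transcription factor of epithelia, rose by 1.34, and Spint2 rose by 0.26, a call lost in 6 alternatives. Keratinocyte and desmosome genes moved the same way, with 20 of 21 lower and a median of -2.01. Krt14, a basal keratin, went from 644.3 and 1105 to 122.2 and 210.3 normalized counts (-2.39), and the desmosome gene Dsp from 9365 and 10061 to 1270 and 1502 (-2.81). Dsg2 alone rose in this list, by 0.24, a call lost with all 24 libraries in the fit and without GFP-negative replicate 1. In ESCs these genes were lower still, by a median of 1.84 on the log2 scale relative to GFP-high cells.

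Mesenchymal genes fell in 17 of 26 cases and rose in 3, with a median of -1.18, and 12 of 21 collagens fell and 3 rose, with a median of -0.98. Zeb2, a repressor of epithelial genes, went from 484.3 and 497.9 to 19.4 and 24.3 normalized counts (-4.44, SE 0.19), and Vim, the intermediate filament of mesenchyme and neural precursors, from 4340 and 4672 to 872.8 and 1026 (-2.25). Of the collagens, Col4a6 fell by 4.27 and Col4a1, of basement membranes, by 1.25 on the log2 scale, while Col5a3 rose by 2.63. Of the 3 mesenchymal genes that rose, the integrin gene Itga9 rose most and was the only one higher by at least 2-fold. Fibronectin (Fn1) rose by 0.23 and Twist1 by 0.85 in the mesenchymal list, and the calls of Fn1 and Twist1 were each lost in at least 4 alternatives.

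The feeder cells are fibroblasts and share collagen genes with this list. Of 13 tested markers of feeder fibroblasts, 10 fell and 2 rose, and their summed normalized counts were 2946 and 2822 in GFP-negative and 2368 and 2276 in GFP-high libraries, against 32901 and 47117 in NPCs. The 4 Y-linked genes that would mark the male feeders summed to 2.15 to 4.95 normalized counts in the 4 libraries. Summed markers of primitive endoderm were 2050 and 2199 in GFP-negative and 866.0 and 789.3 in GFP-high libraries, with 7 of 10 lower and 2 higher. Those of trophoblast were 1383 and 1433 against 514.1 and 529.3, with 6 of 8 lower and 1 higher. The part of such cells in the results was not tested. Blood and endothelial markers summed to 3695 and 3417 against 5629 and 4395, with 2 of 5 tested higher and 2 lower (40% each way). For comparison with these marker counts, 34.1% of all genes tested were higher and 34.6% lower, and the blood and endothelial shares were near this. Markers of 2-cell-like cells summed to 27.9 and 20.8 in GFP-negative and 117 and 92.5 in GFP-high libraries, with 1 gene tested and not called.

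Neural progenitor and glial genes, which mark the starting NPCs, were lower in 17 of 24 cases and higher in 1, with a median of -2.11. Nes, the intermediate filament of neural stem cells, went from 4702 and 4895 through 1476 and 1785 to 654.6 and 687.6 normalized counts (-2.84, SE 0.07), with NPCs at 22584 and ESCs at 588.8. Pax6, a regulator of neural fate, fell by 3.71 and Sox1 by 1.61. Bcan, a proteoglycan gene of brain matrix, rose from 6.4 and 8.9 to 43.4 and 52.0 normalized counts. The list lay 2.21 above ESCs on the log2 scale in GFP-negative and 0.21 above them in GFP-high cells.

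Of the ERK and EGFR pathway genes, 21 of 27 were lower and 1 was higher, with a median of -1.09. The immediate-early gene Fos went from 7373 and 6671 to 2088 and 1572 normalized counts (-1.95, SE 0.12), the receptor genes Fgfr2 and Egfr fell by 2.66 and 1.58, and the ERK phosphatase gene Dusp6 by 0.66 on the log2 scale. Etv5, an ETS factor induced by FGF, rose by 0.34. DNA replication and mitosis genes were higher in 27 of 32 cases and lower in 1, by less: the median was 0.45. The largest increase was for Pola1, the X-linked catalytic subunit of DNA polymerase alpha, from 3215 and 3554 to 9998 and 10837 normalized counts (1.62, SE 0.08), and the cyclin gene Ccne1 rose by 1.32. The helicase gene Mcm2 rose by 0.63, and Mki67, the proliferation marker, fell by 0.24, a call lost without GFP-negative replicate 2. CDK inhibitors and p53 targets were split 7 to 7 of 20 (35% each way), with Cdkn1c up by 1.76 and Cdkn2b down (-1.54). Glycolysis genes were split 7 to 7 of 22 (31.8% each way). These shares were close to the 34.1% higher and 34.6% lower of all genes tested. Of 7 tested mitochondrially encoded subunits, 5 rose, with a median of 0.59, while the share of all mitochondrial transcripts was lower in GFP-high libraries, as given above.

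The same contrast without IFNγ shares no library with this one, and its difference was tested as an interaction. In the control arm, 5405 of 15574 genes were higher (34.7%) and 6123 lower (39.3%). For the difference between the arms, 1487 of 15764 genes had a positive value (9.43%), a change more upward with IFNγ, and 2101 a negative value (13.3%) in limma at adjusted p under 0.1. With a difference of at least 2-fold as well, 205 were positive (1.3%) and 723 negative (4.59%). This split depended on scaling: with libraries rescaled to the same total, 655 were positive and 4065 negative, and the median difference over all genes moved from -0.03 to -0.20. The counts also fell to 734 and 1219 without control GFP-high replicate 2 and to 829 and 1316 without control GFP-negative replicate 1.

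**Figure D5:**
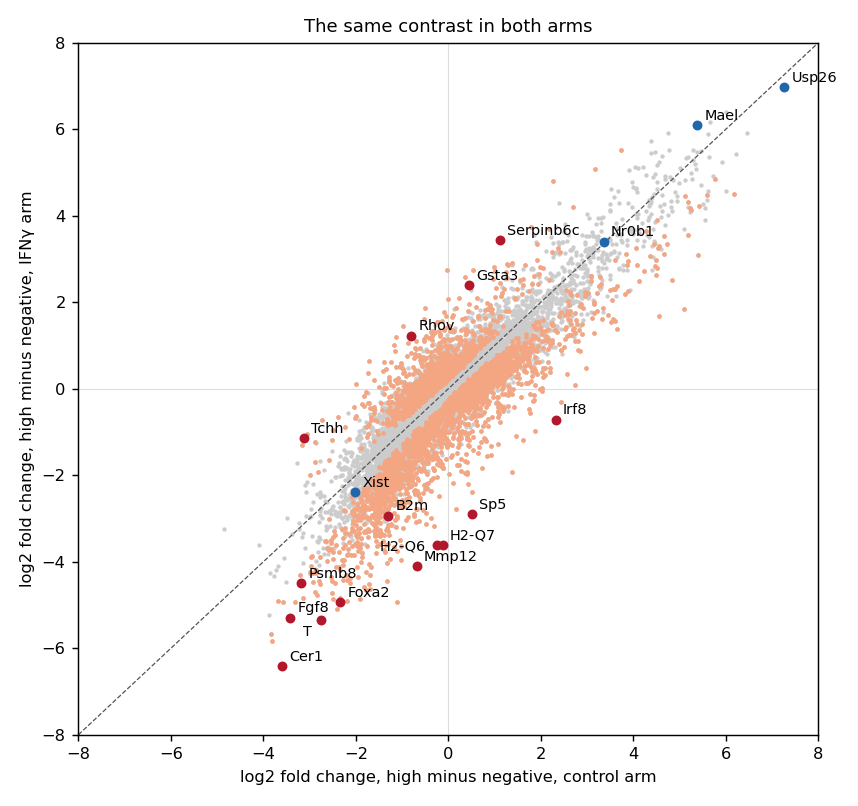
Log2 fold change of GFP-high over GFP-negative cells in the control arm (x axis) and in the IFNγ arm (y axis), 1 point per gene tested in both arms (15276 genes); orange points have a difference between arms at adjusted p under 0.1 in limma, and labelled genes are red where they pass it and blue where they do not. Mael, Usp26, Nr0b1 and Xist do not pass it in this fit, and T, Cer1, Psmb8 and B2m lie lower in the IFNγ arm.

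The pluripotency, germline and X-linked changes were found in both arms. The naive factors had a median of 1.45 in the control arm, with 17 of 19 higher, and the germline genes 3.14, with 30 of 32 higher. Their sizes differed in part: of the 19 naive factors 7 had a negative and 3 a positive difference between arms past the threshold. Of 33 germline genes, 7 were negative and 2 positive. Over all genes tested, 13.3% had a negative and 9.43% a positive difference. For the 12 largest increases the difference between arms ranged from -0.79 to 1.09 on the log2 scale, and the smallest adjusted p among them was 0.12 in limma. With the replicate number as a block, 3 of the 12 passed (Smc1b, Rpl10l and Zfp989, the smallest adjusted p 0.022), and 0 to 3 passed in the other alternatives. X-linked genes had a median of 0.35 in the control arm, with 307 of 590 higher and 136 lower. Of 600 with a test of the difference, 78 were positive (13%) and 84 negative (14%), near the shares over all genes. The median rise in X mus proportion was 0.346 with IFNγ and 0.293 without, and GFP-high cells of the IFNγ arm had the higher proportion for 272 of 315 genes. GFP-negative cells of the IFNγ arm were above those of the control arm for 195 of 315. The fall of Xist was -2.39 with IFNγ and -2.01 without (difference -0.38, adjusted p = 0.11 in limma). With the block this difference passed (adjusted p = 0.020), and over all alternatives its adjusted p ran from 0.020 to 0.34.

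The IFNγ-response genes differed between the arms: of 47 tested, 31 had a negative difference past the threshold, and the median difference was -1.04. In the control arm 41 of these genes passed that arm's own filter, of which 28 were lower and 6 higher, with a median of -0.93. The median of -1.90 with IFNγ was over 48 genes, so the 2 medians cover different sets of genes. Psmb9, an immunoproteasome gene, was at -2.87 with IFNγ and -0.48 without, a difference of -2.39 (SE 0.29, adjusted p = 7.6e-04 in limma). Irf8, a factor of the same family as Irf1, was at -0.72 with IFNγ and at 2.32 without, a difference of -3.03 (SE 0.33). The IFNγ-arm call of Irf8 was lost without GFP-negative replicate 2. Neural genes had 12 negative differences of 22, late pluripotency markers 10 of 23, with 1 positive, formative genes 9 of 13, and replication genes 13 of 32, with 1 positive. Over all genes tested, 13.3% of differences were negative and 9.43% positive, a split that depended on scaling as given above. Grhl2 (1.34 and 0.13) and Tet2 were among the listed genes with a positive difference past the threshold.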

How the data were processed

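Total RNA of 24 libraries in 12 groups was sequenced. Per the labels and the study's methods, the authors aligned reads with STAR to mm10 and counted them per gene with HTSeq 0.6.1, and they divided the counts by DESeq2 size factors. The deposited signal values are these normalized counts, and all values came out as whole reads within 0.01 when divided by the value of 1 read. The authors' X mus proportion is a fraction from 0 to 1 of allelic reads, 1 value per gene and population, for genes that the methods say had more than 25% from X cas; of 315 genes, 3 miss this in at least 1 of 8 populations. How replicates were joined is not stated.

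Genes with a mean above 10 in the 4 libraries were tested with limma 3.58.1 (R 4.3.3; lmFit and eBayes with trend) on log2(normalized count + 1), two-sided, with Benjamini-Hochberg adjustment and a threshold of 0.1, so fold changes of low genes are understated. A gene with a mean under 10 in 1 population could pass this filter only by being higher in the other. The arms were compared by an interaction term in 8 libraries. Alternatives were DESeq2 1.42.0 and edgeR 4.0.16 on recovered reads, a pseudocount of 0.1, no filter, rescaling, autosomal size factors, all 24 libraries, a replicate block and leaving out each library. The fit was tested on simulated data with 200 of 15844 genes changed: 77.5% were recovered and 18% of 189 calls were false, more than the threshold of 0.1 aims at. In the data 68.7% of genes were called, far more than were changed in the simulation. These rates therefore do not give the error of the reported calls.

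Members and lists were chosen with earlier results of these data known. Genes named are the 12 largest changes each way at a mean of at least 100 in the higher group, with libraries that do not overlap and without clone names, list members with the largest, smallest and opposite changes, the X-inactivation center, the 6 largest differences between arms each way and the 5 largest and 5 smallest differences in X mus proportion. Positions are from the annotation in GRCm38, which matched 95.2% of genes, and promoters from RefSeq GRCm38.p6. Some members of the lists are counted but not reported by name here.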

Additional observations from a re-analysis of the deposited data

Results flagged for a closer look

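Below are genes whose contrast of GFP-high with GFP-negative cells differed between the IFNγ and control arms by the interaction term in limma. Values are the log2 fold change with IFNγ minus that without, and genes were picked as the largest changes, the largest differences or leading IFNγ-response genes, so the size of each is a description.

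Positive differences were found for Serpinb6c, a serine protease inhibitor gene (2.32; 3.43 with IFNγ and 1.11 without), Rhov (2.04; 1.23 and -0.81), Card14, a scaffold of NF-κB signalling in skin (2.01; -0.72 and -2.73), Rnf39 (2.00; 0.61 and -1.39), Tchh, trichohyalin of the hair follicle (1.98; -1.15 and -3.13), and the glutathione transferase gene Gsta3 (1.94; 2.40 and 0.46). Serpinb6c was at 76.2 and 75.2 normalized counts in GFP-negative and 868.3 and 784.7 in GFP-high libraries of the IFNγ arm. Card14 and Rnf39 were at most 50.5 and 63.6 normalized counts in the 4 libraries of the IFNγ arm compared, and their calls within that arm were each lost in at least 6 alternatives. The difference of Card14 missed the threshold when all 24 libraries were fitted.

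Negative differences were found for Slc44a5 (-4.98), H2-Q7 (-3.50), Samd3 (-3.43), the WNT target Sp5 (-3.42), the metalloproteinase gene Mmp12 (-3.42) and H2-Q6 (-3.38). Slc44a5 went from 102.0 and 140.6 to 6.8 and 8.1 normalized counts with IFNγ. Sp5 fell by 2.90 on the log2 scale with IFNγ and was at 0.52 without, and NPCs were at a mean of 780.6. H2-Q6 and H2-Q7 are near-identical class I genes, each at -3.62 with IFNγ, and reads may be split between them.

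The large decreases Cer1, T and Foxa2 had differences of -2.81, -2.59 and -2.60. With DESeq2, edgeR or a pseudocount of 0.1, the differences of Cer1 and Samd3 missed the threshold. Psmb8 (-1.31) and B2m (-1.63) of the IFNγ-response list fell in both arms, by 3.19 and 1.31 on the log2 scale without IFNγ.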

How the results depend on the processing

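Of 121 comparisons of a summary count or median with its value under an alternative, 107 stayed within 1.5 times or within the spread between replicates. With genes of any level kept, 2464 were higher by at least 2-fold and the median of X-linked genes was 0.53; rescaled to the same total it was 0.36. Leaving out 1 library each gave an X-linked median of 0.44 to 0.46, and for the difference between arms 734 to 1433 positive and 1219 to 2106 negative genes. Rescaling gave 655 positive and 4065 negative differences. The causes were not tested. Whether equal replicate numbers share a culture or a sort is not stated. The correlations of deviations between them were 0.21, 0.28 and 0.29 in the IFNγ arm and 0.13 in the control arm, with 2 pairs. With a replicate block, 2441 differences were positive and 3204 negative. The high-against-negative counts were 5982 and 5958 with the block, 4637 and 4751 with DESeq2, and 5393 and 5532 with edgeR.

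Of 495 named or listed genes, 416 kept their call and direction in all alternatives. Of the rest, DESeq2 lost 14 calls, the fit over all 24 libraries 27, no filter 22, edgeR none, and each left-out library 18 to 31. Spry4 reversed, at -0.19 without GFP-high replicate 2 against 0.09, not called, in the reported fit. With 2 libraries a group, small changes rest on few degrees of freedom, and levels near 3 reads have no firm fold change.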

Other observations

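A list of 29 primitive streak, node and early mesendoderm genes, drawn up after the values of T, Cer1 and Foxa2 had been seen, was followed as a description. Of 25 tested, 21 were lower in GFP-high than in GFP-negative cells of the IFNγ arm, 2 were higher and 2 were not called. The median log2 fold change was -2.88. Over all genes tested, 34.6% were lower and 34.1% higher. Gsc, a homeobox gene of the organizer, was at 171.8 and 169.3 in GFP-negative, 26.87 and 21.96 in GFP-medium and 28.6 and 35.8 in GFP-high libraries (-2.38). Eomes, a T-box factor, was at 585.3 and 694.9 against 238.8 and 260.0 (-1.35), and the retinoic acid hydroxylase gene Cyp26a1 at 376.9 and 470.2 against 18.3 and 18.5 (-4.44). Wnt8a was at -4.25 and Mixl1 at -1.96. Bmp4 was higher, at 1070 and 1379 against 340.4 and 285.1 (1.96), and the WNT target Axin2 was at -0.11 and did not pass the test. In the control arm, 13 of the 22 that passed that arm's own filter were lower and 4 higher, with a median of -1.14 over this smaller set. For the difference between arms, 20 of 25 tested had a negative value past the threshold, against 13.3% of all genes tested.

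A run of zinc finger genes on chromosome 4 (chr4:145510759-147848366, GRCm38), also singled out after their values had been seen, was higher in GFP-high cells. Of 20 tested, 19 were higher and 1 was lower, with a median log2 fold change of 3.98. Over all genes tested, 34.1% were higher and 34.6% lower. Members such as Zfp989 and Zfp987, with means of 3.1 and 5.8 in GFP-negative cells, passed the filter through GFP-high cells alone. They could only be called higher, so these counts are a description. Zfp600 was at 16.1 and 12.9 in GFP-negative, 232.9 and 192.4 in GFP-medium and 908.2 and 948.8 in GFP-high libraries, and Zfp981 at 60.1 and 43.6, 365.0 and 339.8, and 1723 and 1819. Rex2, of the same run, was at 23.6 and 10.9 against 522.1 and 568.6. Zfp933, at the end of the run, was the member that was lower (-0.96). These genes have near-identical copies, so reads may be split or shared between them and the members are not independent of each other.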
